A study of Mus musculus with 18 samples.

Results

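The difference between hippocampus and prefrontal cortex in the response to the 5xFAD genotype was measured gene by gene as an interaction: the change from wildtype to 5xFAD in hippocampus minus the same change in prefrontal cortex. It was taken over 12 of the 18 RNA-seq libraries of the series, 3 each of wildtype and 5xFAD tissue from both regions, and over 13384 of the 18683 listed genes, those at or above 0.5 FPKM in 3 or more of the 12. The mice were male C57BL/6J. The 5xFAD animals carry mutated human transgenes, APP among them, under the neuronal Thy1 promoter, so the model drives amyloid from neurons of both regions. All mice of these 4 groups had received PBS into a vein every 3 days, 10 times, from 5 to 6 months of age, then behavioural tests, and were perfused with cold PBS before dissection. The other 6 libraries, 5xFAD tissue after the same course of extracellular vesicles from human breast milk, appear only as levels. The labels do not say that libraries of 1 group are separate mice, so p-values measure only how these samples vary, and that variation may be technical.

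An interaction asks whether a fold change differs between tissues, which is not shown by a gene passing a threshold in 1 tissue and missing it in the other. In 5xFAD brain, microglia around amyloid plaques take on a state with high lysosomal, lipid-handling and phagocytic transcripts, and interferons raise genes of antigen presentation in microglia and other cells. The hippocampus borders the lateral ventricle, which holds the choroid plexus, an epithelium that secretes cerebrospinal fluid and makes transthyretin in large amounts. In bulk tissue, more cells of a type and more RNA per cell cannot be told apart.

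The libraries held 30806460 to 36365571 reads in listed genes, read back from the FPKM steps. The transgene promoter's own gene served as the label check. Thy1 was at 494.2, 480.5 and 433.4 FPKM in wildtype cortex and 1094, 1151 and 1048 in 5xFAD cortex, and at 432.1, 458.7 and 505.6 in wildtype hippocampus and 1330, 1293 and 1075 in 5xFAD hippocampus. The genotypes did not overlap in either tissue, and the interaction was 0.17 on the log2 scale (standard error, SE, 0.15; adjusted p = 0.86, limma). Mouse App, the precursor of amyloid, had an interaction of -0.12 (adjusted p = 0.84, limma). Hippocampal neuron markers summed to 354.2 to 451.6 FPKM in the 6 hippocampal libraries and 165.1 to 228.2 in the 6 cortical ones. Striatal neuron markers summed to 276.1 to 787.9 in the cortical libraries, highest in wildtype replicate 3, against 76.48 to 125.9 in hippocampus.

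Of the 13384 genes, 42 (0.314%) had an interaction with an adjusted p under 0.05 (limma on log2(FPKM + 0.5), two-sided, Benjamini-Hochberg over all genes tested), and are the genes called below. All 42 were larger in hippocampus and 0 were smaller. At an unadjusted p under 0.05 there were 953 interactions (7.12%), 681 positive (5.09%) and 272 negative (2.03%). The median interaction over all genes was 0.01 on the log2 scale and 52.3% of genes were above 0. In the same fit the genotype itself was called for 286 genes in cortex (2.14%; 255 higher in 5xFAD, 31 lower) and 1083 in hippocampus (8.09%; 948 higher, 135 lower). The 42 calls rested on each cortical and each wildtype library: without any 1 of those 9 libraries 13 to 24 genes were called, and without any 1 5xFAD hippocampal library 52 to 59. No gene was called when all 18 libraries shared 1 estimate of spread, and 2 were called from the recovered reads with voom.

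**Figure D1:**
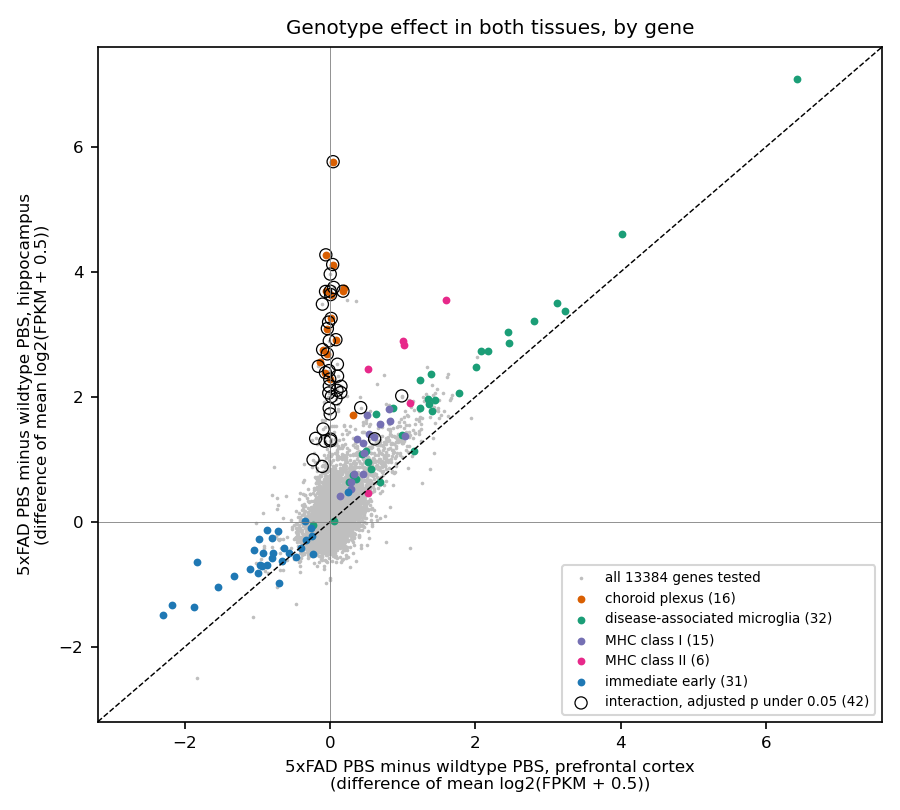
Genotype effect in prefrontal cortex (x axis) and hippocampus (y axis), both as differences of mean log2(FPKM + 0.5), for 13384 genes, with 5 gene lists in colour and the 42 called interactions ringed. The dashed line marks equal effects; the choroid plexus genes form a column near 0 on the x axis, while the microglial genes run along and somewhat above the line.

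The largest differences were in genes of the choroid plexus epithelium. Of the 16 listed markers 13 were called, all 16 had an unadjusted p under 0.05, and the median interaction was 3.19 against 0.01 over all genes. The median genotype effect of the list was 0.00 in cortex, where none of the 16 was called, and 3.17 in hippocampus, where all 16 rose. The 3 markers that missed the threshold were the water channel Aqp1 (3.55, SE 0.72, adjusted p = 0.083), Calml4 (2.71, SE 0.58, adjusted p = 0.0999) and the sulfate transporter Slc13a4 (1.40, SE 0.61, adjusted p = 0.67; limma).

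F5, coagulation factor V, had the smallest p of all genes. It stood at 0.0268, 0.0644 and 0.0259 FPKM in wildtype cortex, 0.0786, 0.107 and 0.141 in 5xFAD cortex, 0.153, 0.217 and 0.206 in wildtype hippocampus and 7.29, 12.6 and 6.49 in 5xFAD hippocampus. The 3 hippocampal 5xFAD libraries were thus the only ones of the 12 above 1 FPKM, and the interaction was 3.52 (SE 0.27, adjusted p = 0.00020, limma). On the recovered reads the interaction of F5 did not pass (3.89, adjusted p = 0.41, voom). Kcne2, a potassium channel subunit of the epithelium, was at most 0.0482 FPKM in the 6 cortical libraries. It was at 0.121, 0.0944 and 0.433 in wildtype hippocampus and at 9.68, 24.2 and 9.38 in 5xFAD hippocampus (interaction 4.33, SE 0.41, adjusted p = 0.0013, limma; 7.56, adjusted p = 0.58, voom). Outside 5xFAD hippocampus F5 and Kcne2 lay below the 0.5 FPKM added before the log in every PBS library. The sizes of their interactions therefore depend on that pseudocount.

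Ttr, the thyroid hormone carrier transthyretin, had the largest interaction of the 42 on the log2(FPKM + 0.5) scale and, among them, the largest standard error. With voom on the recovered reads some of the 42 were larger, such as Kcne2 at 7.56 against 5.67 for Ttr. Levels of Ttr were 7.81, 5.64 and 1.57 FPKM in wildtype cortex, 5.76, 3.18 and 4.47 in 5xFAD cortex, 29.7, 76.5 and 158.7 in wildtype hippocampus and 2532, 8684 and 2697 in 5xFAD hippocampus. The cortical groups overlapped and the hippocampal groups did not (interaction 5.72, SE 0.91, adjusted p = 0.023, limma; called in 5 of 12 fits that left out 1 library). Transporters and channels of the list followed: the chloride channel protein Clic6 (4.08), the potassium channel Kcnj13 (3.75), the folate receptor Folr1 (3.63) and the bicarbonate transporter Slc4a5 (3.24). The tight junction protein Cldn2 (3.13), the secreted inhibitor Sostdc1 (2.86), the ageing-related coreceptor Kl (2.84), Tmem72 (2.73), the homeobox factor Otx2 (2.45) and the prolactin receptor Prlr (2.29) completed the 13.

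The promoters of F5 and Kcne2 are shown as those of 2 of the most clearly separated genes, from 250 bases before to 50 after the start in RefSeq on GRCm38.p6, another build than the GRCm39 named for the deposited values. F5 lies at chr1:164151585-164151884 on the plus strand and Kcne2 at chr16:92292139-92292438 on the plus strand.
F5: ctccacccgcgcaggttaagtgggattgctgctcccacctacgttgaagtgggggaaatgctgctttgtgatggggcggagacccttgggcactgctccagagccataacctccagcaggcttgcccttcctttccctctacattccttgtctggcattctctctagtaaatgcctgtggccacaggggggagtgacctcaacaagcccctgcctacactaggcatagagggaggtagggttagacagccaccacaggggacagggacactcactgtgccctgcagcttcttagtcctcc
Kcne2: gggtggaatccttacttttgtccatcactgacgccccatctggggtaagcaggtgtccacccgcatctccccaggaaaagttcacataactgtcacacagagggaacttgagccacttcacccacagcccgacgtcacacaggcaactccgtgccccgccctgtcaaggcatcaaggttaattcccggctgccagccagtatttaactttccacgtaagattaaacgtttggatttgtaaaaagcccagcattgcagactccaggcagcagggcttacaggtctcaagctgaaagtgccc
Neither window holds the interferon response motif (GAAA, then 2 bases of any kind, then GAAA) on either strand, which is marked by capitals in the later sequences. The motif stood in 1 of the 31 called genes that matched the promoter table by symbol (3.23%) and in 3.99% of the 27025 genes of that table. The letters TAATCC, bound by Otx homeodomain factors, stood in 4 of the 31 (12.9%) against 8.14% of all genes, searched on both strands. Such matches describe letters in a window and not binding.

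The other 29 called genes were outside the choroid plexus list. In the positions of single libraries most of them went with the list. Among all 42 called genes, 5xFAD PBS replicate 2 was the highest of its hippocampal group in 42 (39.5% of all genes). Vesicle-treated replicate 3 was the lowest of its hippocampal group in 41 (40.5%) and the highest of its cortical group in 39 (47.8%). Whether the 29 reflect choroid plexus content was not tested. Enpp2, the lysophospholipase autotaxin, was the most abundant of the 29. In the 6 cortical libraries Enpp2 lay between 59.99 and 67.5 FPKM and in wildtype hippocampus at 55.7, 72.1 and 65.9, whereas 5xFAD hippocampus had 431.9, 1060 and 454 (interaction 3.22, SE 0.36, adjusted p = 0.0031, limma). Sulf1, a heparan sulfate sulfatase, was higher in wildtype cortex (4.10, 3.91 and 4.96 FPKM) than in wildtype hippocampus (1.11, 1.23 and 1.30). In 5xFAD it stood at 4.48, 3.10 and 3.90 in cortex and 7.15, 14.95 and 7.01 in hippocampus, so the order of the tissues turned round (interaction 2.65, SE 0.33, adjusted p = 0.0044, limma). Enpp2 and Sulf1 were the 2 genes that voom on the recovered reads also called.

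Among secreted and enzyme-coding genes, Wfdc2 (3.59), the angiotensin-converting enzyme Ace (2.42), the carbonic anhydrase Car12 (1.54), the paraoxonase Pon3 (1.41) and the collagens Col8a1 (2.44) and Col9a3 (2.02) were called. Among membrane proteins were the metalloreductases Steap1 (3.70) and Steap2 (1.29), the monocarboxylate transporter Slc16a8 (2.18), the exchanger Slc24a5 (2.08), the sugar transporter Slc2a12 (1.99), the cation channel Trpv4 (1.92) and the lipid transporter Abca4 (1.89). The receptors were Crhr2 (1.58), for urocortins, and the serotonin receptor Htr2c (1.23). Prr32 (3.96), the defensin Defb11 (3.69) and Ins2 (1.73) were listed at 0 in all 6 cortical libraries, so their fitted differences depend on the pseudocount. The same holds for other called genes far below 0.5 FPKM in wildtype, such as Slc16a8, which had 6.06 with voom on the recovered reads. The keratin Krt18 (2.91), Wdr86 (2.23), Epn3 (2.01), Baiap2l1 (1.83), Ooep (1.36), Fam81b (1.32) and the syntrophin Sntb1 (0.997) were also called.

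Htr2c, like Sulf1, was higher in wildtype cortex than in wildtype hippocampus. It was at 15.4, 15.04 and 18.3 FPKM in wildtype cortex and 13.6, 12.8 and 14.7 in 5xFAD cortex, but at 10.4, 8.38 and 10.9 in wildtype hippocampus and 17.0, 25.3 and 18.7 in 5xFAD hippocampus. The cortical values of the 5xFAD libraries all lay below those of wildtype, by -0.24 on the log2 scale (adjusted p = 0.80, limma), while the hippocampal rise was 0.99 (adjusted p = 0.00068, limma).

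Ctsc and Slc37a2 were the 2 called genes whose genotype effect was also called in cortex. Ctsc, the lysosomal protease cathepsin C, was at 0.887, 0.956 and 0.880 FPKM in wildtype cortex and 1.56, 1.56 and 1.84 in 5xFAD cortex, and at 1.08, 1.11 and 1.13 in wildtype hippocampus and 3.45, 3.69 and 3.49 in 5xFAD hippocampus. Replicates lay close together and the rise was 0.61 in cortex and 1.33 in hippocampus (interaction 0.72, SE 0.13, adjusted p = 0.046, limma; 0.067 when blocked on replicate number, where it did not pass). Slc37a2, a sugar-phosphate transporter of macrophages, was at 0.570, 0.504 and 0.496 FPKM in wildtype cortex and 1.54, 1.31 and 1.75 in 5xFAD cortex. In hippocampus it was at 0.401, 0.427 and 0.480 in wildtype and 3.18, 3.84 and 2.89 in 5xFAD (interaction 1.03, SE 0.17, adjusted p = 0.026, limma). Ctsc and Sntb1 were called in none of the 12 fits that left out 1 library, Slc37a2 in 3 of them, and 13 of the 42, among them F5, Kcne2, Enpp2 and Sulf1, in all 12.

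**Figure D2:**
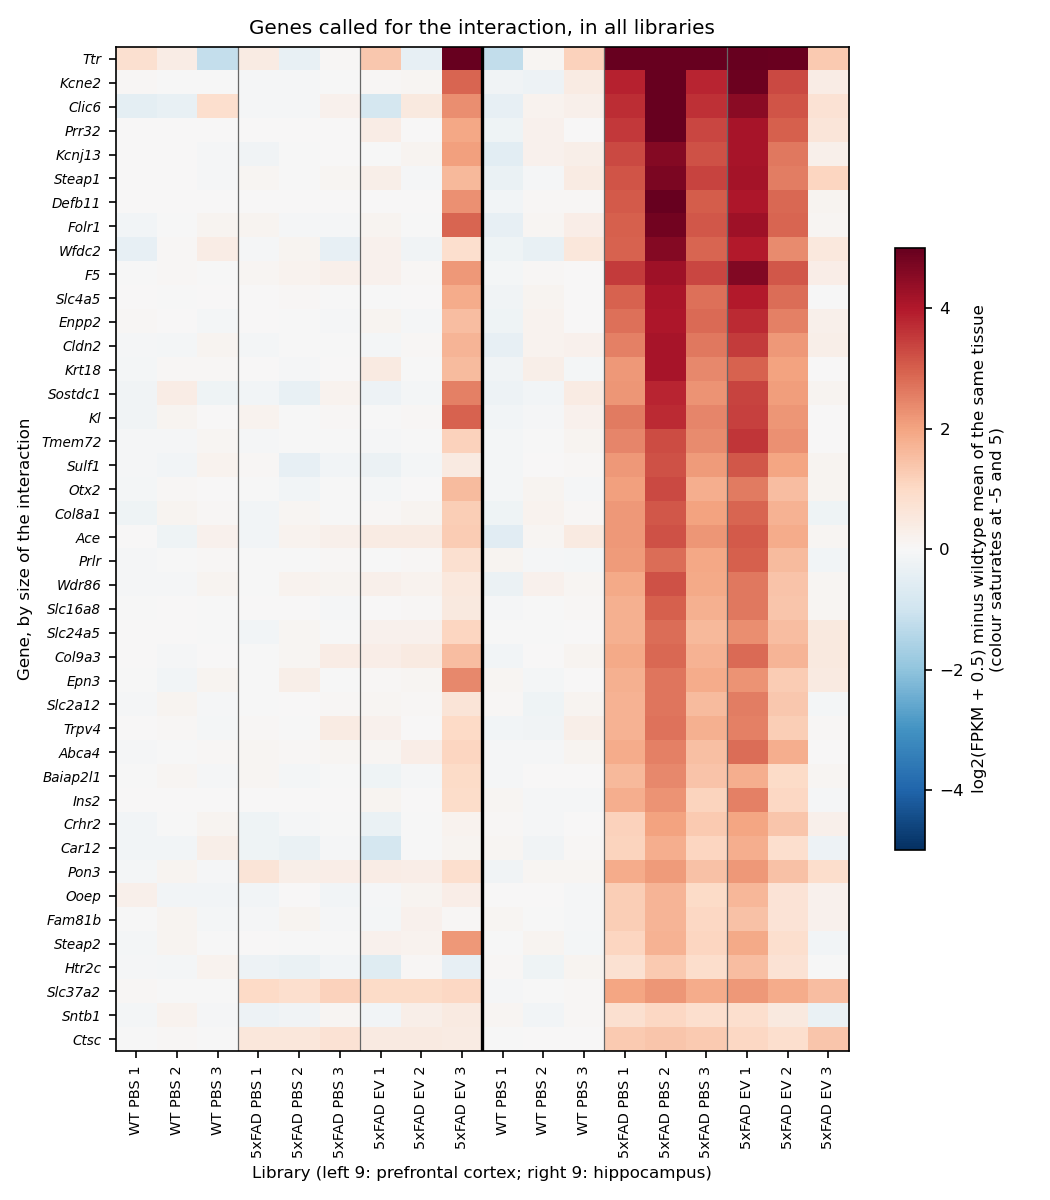
The 42 genes called for the interaction (rows, by size) in all 18 libraries (columns), as log2(FPKM + 0.5) minus the wildtype mean of the same tissue. 5xFAD PBS hippocampus replicate 2 is the darkest column of its group; of the vesicle-treated libraries, hippocampus replicate 3 is mostly pale, and cortex replicate 3 is coloured for most genes.

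The 42 genes shared the order of libraries in part. In hippocampus the genotypes were without overlap for all 42 (25.2% of all genes tested), which selection by the interaction favours. In cortex they were without overlap for 5 (14.8% of all genes). The highest wildtype hippocampal library was replicate 1 for 8 genes, replicate 2 for 9 and replicate 3 for 25. 5xFAD PBS replicate 2 was the highest of its hippocampal group in 42 of 42 genes, which held for 39.5% of all genes. Summed over the 16 choroid plexus markers, wildtype hippocampus had 41.5, 95.2 and 184.3 FPKM and 5xFAD hippocampus 2677, 9064 and 2836, while the 6 cortical libraries had 8.76 to 15.4. No marker was at 0 in all 3 libraries of a group.

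The vesicle-treated 5xFAD libraries, which no test used, held both kinds of level. In hippocampus the summed markers were at 5810 and 2316 FPKM in replicates 1 and 2 and at 196.4 in replicate 3, near the highest wildtype library. Replicate 3 was the lowest of its group in 41 of the 42 genes (40.5% of all genes) and at or below the highest wildtype library in 21, where 70.3% of all genes were. In cortex, where PBS libraries of either genotype had no more than 15.4, vesicle replicates 1 and 2 were at 18.1 and 13.5 and replicate 3 at 886.7. A 5xFAD hippocampus with summed levels near wildtype and a 5xFAD cortex far above it were thus both present among the 6.

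Markers of tissues that lie beside the choroid plexus moved with it in part. The 12 meningeal fibroblast markers summed to 82.01 to 254.5 FPKM in wildtype hippocampus, 183.2 to 456.5 in 5xFAD hippocampus, and 71.8 to 137.6 in the cortical libraries. All 12 had an interaction above 0 (52.3% over all genes), with a median of 0.66 and none called; the growth factor Igf2 reached 1.84 (adjusted p = 0.38, limma). The 9 ependymal and ciliary markers summed to 54.8 to 66.5 in wildtype hippocampus and to 50.8, 160 and 42.6 in 5xFAD hippocampus, replicate 2 being the high one, and their median interaction was -0.19. The part of dissection, choroid plexus content or meninges in the 42 calls was not tested, and in the 12 PBS libraries the choroid plexus level and the 5xFAD genotype in hippocampus cannot be told apart. A fit with the mean of the 16 markers as a covariate called no interaction, and 0 of the 42 genes kept their call. The covariate is built from 13 of the 42, and for those 13 the loss follows from its construction. For the other called genes, too, little could pass. The covariate was at 3.49 to 4.84 in 5xFAD hippocampus and -0.32 to 0.97 in the other PBS libraries, so it nearly repeats the tested contrast. In that fit hippocampal genotype calls fell from 1083 to 20. The loss of the calls therefore says nothing about choroid plexus content in those genes.

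**Figure D3:**
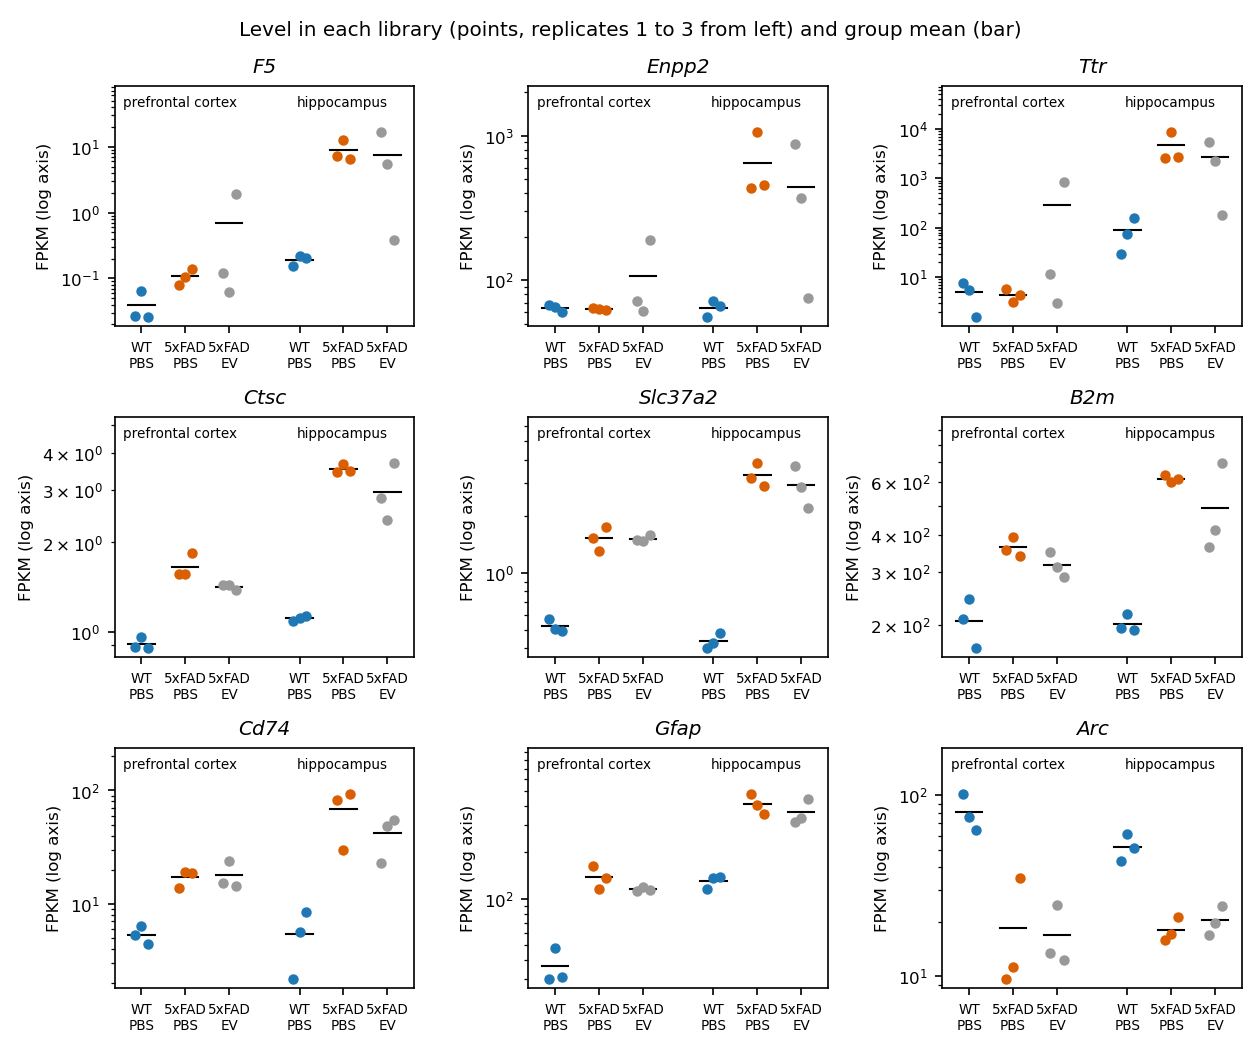
FPKM (log axis) of 9 genes in each library (points, replicates 1 to 3 from left; bars, group means) of the 6 groups, cortex left and hippocampus right in each panel. F5, Enpp2 and Ttr are high in 5xFAD PBS hippocampus only among the PBS groups, whereas Ctsc, Slc37a2, B2m, Cd74 and Gfap are higher in 5xFAD in both tissues and Arc is lower in both.

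Antigen presentation and interferon genes had larger genotype effects in hippocampus by their list medians, with no single gene called. The 15 MHC class I presentation genes all had an interaction above 0, with a median of 0.76 and 10 at an unadjusted p under 0.05 (5.09% over all genes). Their median genotype effect was 0.46 in cortex, with 5 called higher (1.91% of all genes), and 1.32 in hippocampus, with 14 called higher (7.08%). The 14 interferon-inducible GTPases had a median interaction of 0.98, all above 0 and 7 at an unadjusted p under 0.05. Their median genotype effect was 0.52 in cortex, with 0 called higher (1.91% of all genes), and 1.43 in hippocampus, with 14 called higher (7.08%). Of 28 type I interferon stimulated genes 27 were above 0, with a median of 0.55. The median genotype effect of that list was 0.79 in cortex, with 3 called higher, and 1.34 in hippocampus, with 24 called higher. Both lists thus had cortical medians above 0, and the counts of calls do not measure the difference between tissues.

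B2m, the light chain that all class I molecules need, was at 208.9, 243.3 and 166.9 FPKM in wildtype cortex and 356, 394.6 and 339.7 in 5xFAD cortex, and at 195.4, 216.9 and 191.5 in wildtype hippocampus and 634, 600.3 and 614.4 in 5xFAD hippocampus. All 3 hippocampal 5xFAD libraries exceeded the other 9, and the interaction of 0.78 (SE 0.17) missed the threshold (adjusted p = 0.11, limma; 0.036 when blocked on replicate number). H2-D1, a classical class I heavy chain, was at 39.2, 44.1 and 33.1 in wildtype cortex, 64.4, 63.3 and 59.3 in 5xFAD cortex, 35.0, 41.3 and 42.3 in wildtype hippocampus and 151.1, 97.0 and 109 in 5xFAD hippocampus (0.87, SE 0.21, adjusted p = 0.19, limma). How reads shared by near-identical H2 genes were counted is not given in the sources used here, so values of single H2 genes are uncertain. H2-T23, a nonclassical class I gene, reached the largest class I interaction at 1.20 (SE 0.29, adjusted p = 0.19, limma).

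The promoters of B2m (chr2:122147437-122147736, plus strand) and H2-T23 (chr17:36032652-36032951, minus strand) are shown because both hold the interferon motif in capitals, B2m in the forward and H2-T23 in the reverse orientation; windows and build are as above.
B2m: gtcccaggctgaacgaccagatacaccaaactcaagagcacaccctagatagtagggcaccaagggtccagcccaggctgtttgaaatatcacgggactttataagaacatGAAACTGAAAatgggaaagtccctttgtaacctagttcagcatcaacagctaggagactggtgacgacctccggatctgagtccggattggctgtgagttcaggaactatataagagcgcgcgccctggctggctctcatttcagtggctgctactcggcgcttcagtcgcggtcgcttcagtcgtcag
H2-T23: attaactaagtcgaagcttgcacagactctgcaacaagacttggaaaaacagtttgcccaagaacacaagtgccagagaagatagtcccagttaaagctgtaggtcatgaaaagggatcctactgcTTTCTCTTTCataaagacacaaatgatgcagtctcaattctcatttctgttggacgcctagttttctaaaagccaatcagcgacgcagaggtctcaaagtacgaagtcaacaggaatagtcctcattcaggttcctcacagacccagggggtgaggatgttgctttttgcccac
Of the 58 class I, class II, interferon and GTPase genes that were higher in 5xFAD hippocampus, 44 matched the promoter table and 23 of these (52.3%) held the motif, against 3.99% of all genes. These genes were selected by their hippocampal call and by list, so the share describes the lists, and the same motif stood in 1 of 31 of the called interaction genes.

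MHC class II genes had the largest list median after the choroid plexus, 1.85 over 6 genes, 5 of them above 0. Cd74, the invariant chain, was at 5.28, 6.36 and 4.41 FPKM in wildtype cortex and 13.8, 19.1 and 18.8 in 5xFAD cortex, and at 2.17, 5.69 and 8.54 in wildtype hippocampus and 82.6, 29.8 and 93.3 in 5xFAD hippocampus. The spread within hippocampus was wide, and the interaction of 1.94 (SE 0.62) did not pass (adjusted p = 0.42, limma). The class II chains H2-Aa (1.81), H2-Ab1 (1.90) and H2-Eb1 (1.93) had interactions of like size with adjusted p of 0.39, 0.32 and 0.24 (limma). The lowest 5xFAD hippocampal library of Cd74 and of these 3 chains was replicate 2, the library with the highest choroid plexus sum. Border-associated macrophages, which also carry class II, had 8 tested markers that summed to 3.40 to 7.03 FPKM in wildtype and 9.06 to 13.4 in 5xFAD hippocampus, and to 4.92 to 8.47 in the cortical libraries. All 8 had an interaction above 0 (median 0.43, none called), 1 rose in hippocampus, and their part in the class II levels was not tested.

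Of the interferon genes, the tetherin gene Bst2 was at 9.18, 9.32 and 4.87 FPKM in wildtype cortex, 12.2, 11.4 and 12.2 in 5xFAD cortex, 8.08, 6.21 and 7.80 in wildtype hippocampus and 22.1, 47.6 and 42.6 in 5xFAD hippocampus. Its interaction was 1.56 (SE 0.38, adjusted p = 0.19, limma). The GTPases Irgm1 (1.10, adjusted p = 0.27) and Igtp (1.23, adjusted p = 0.72; limma) act against intracellular pathogens. Igtp was at 5.58, 6.71 and 25.9 in 5xFAD hippocampus, so 1 library carried much of its mean.

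The vesicle-treated hippocampal replicate 3, with its low choroid plexus sum, gives levels of these lists at that low sum. Only list members called higher in 5xFAD PBS hippocampus were counted. It exceeded the highest wildtype library in 14 of 14 class I genes, 6 of 6 class II genes, 14 of 14 GTPases and 22 of 24 interferon genes. It did so in 0 of 2 meningeal genes and not in the 1 border macrophage gene, Mrc1. The count for choroid plexus genes, 5 of 16, follows from picking the library by its low sum and is no contrast. Of all 948 genes called higher in 5xFAD hippocampus, 786 (82.9%) exceeded the highest wildtype library in it, as did 29.7% of all genes tested. B2m was at 696.4 FPKM in that library and Cd74 at 54.7. This is 1 library, with the fewest reads in listed genes of the series (26437852). It also had the highest summed markers of microglia in all states (309.7 FPKM). It shares its wildtype references with the other comparisons, and its treatment differs, so it is a description.

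Most of the disease-associated microglial and lysosomal genes rose in both tissues, and the median differences between tissues were below those of the MHC lists. Of 32 genes of disease-associated microglia, 23 were called higher in cortex (1.91% of all genes) and 30 in hippocampus (7.08%), with median effects of 1.30 and 1.86. Their median interaction was 0.46; 29 were above 0 (52.3% over all genes), 14 had an unadjusted p under 0.05 (5.09%) and none was called. Cst7, the protease inhibitor cystatin F, was at 0.144, 0.324 and 0.586 FPKM in wildtype cortex and 78.4, 66.4 and 70.0 in 5xFAD cortex. In hippocampus it was at 0.218, 0.424 and 0.201 in wildtype and 112.4, 92.3 and 111 in 5xFAD, all above the cortical libraries, and the interaction was 0.65 (SE 0.24, adjusted p = 0.54, limma). Trem2, a lipid-sensing receptor of microglia, had mean effects of 2.47 in cortex and 2.87 in hippocampus (interaction 0.40, SE 0.23, adjusted p = 0.79, limma), with a 95% interval of 0.50 to either side.

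Other microglial lists had medians of similar size. Homeostatic microglia, among them the growth factor receptor Csf1r (0.41, adjusted p = 0.28) and the lectin Siglech (0.64, adjusted p = 0.21; limma), had a median of 0.30 with 15 of 16 above 0. Markers of microglia in all states had 0.38 with 13 of 14 above 0, and complement 0.53 with 13 of 13. C1qa, a chain of the complement starter C1q, was at 46.1, 63.3 and 46.5 FPKM in wildtype cortex and 145.5, 143.7 and 140.9 in 5xFAD cortex. In hippocampus C1qa was at 48.6, 60.9 and 56.6 in wildtype and 258.7, 223.8 and 243.8 in 5xFAD (0.65, SE 0.17, adjusted p = 0.24, limma). In each tissue the genotypes of C1qa were far apart, and wildtype levels of the tissues overlapped. Cd36, a fatty acid and scavenger receptor, was low throughout, at 0.169 to 1.04 FPKM in cortex and 0.358 to 2.32 in hippocampus, with an interaction of 0.81 (SE 0.39, adjusted p = 0.72, limma).

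Lysosomal genes, 30 in all, had a median interaction of 0.33, 28 above 0 and 17 at an unadjusted p under 0.05, with Ctsc as the only call (0.314% of all genes), lost when blocked on replicate number. In cortex 18 were called higher (1.91% of all genes) and in hippocampus 21 (7.08%). Lamp2, a membrane glycoprotein of lysosomes, was at 16.5, 17.5 and 16.5 FPKM in wildtype cortex and 19.2, 19.9 and 20.4 in 5xFAD cortex, and at 15.8, 17.1 and 16.4 in wildtype hippocampus and 27.5, 31.9 and 27.1 in 5xFAD hippocampus. No groups overlapped within a tissue, and Lamp2 came near the threshold (0.56, SE 0.11, adjusted p = 0.057, limma; 0.028 when blocked on replicate number). Ctsd, the protease cathepsin D, rose by 1.44 in cortex and 1.95 in hippocampus (interaction 0.50, SE 0.14, adjusted p = 0.28, limma). In vesicle-treated hippocampal replicate 3, 30 of 30 disease-associated and 21 of 21 lysosomal genes called in hippocampus exceeded the highest wildtype library, as did 82.9% of all genes called higher there.

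**Figure D4:**
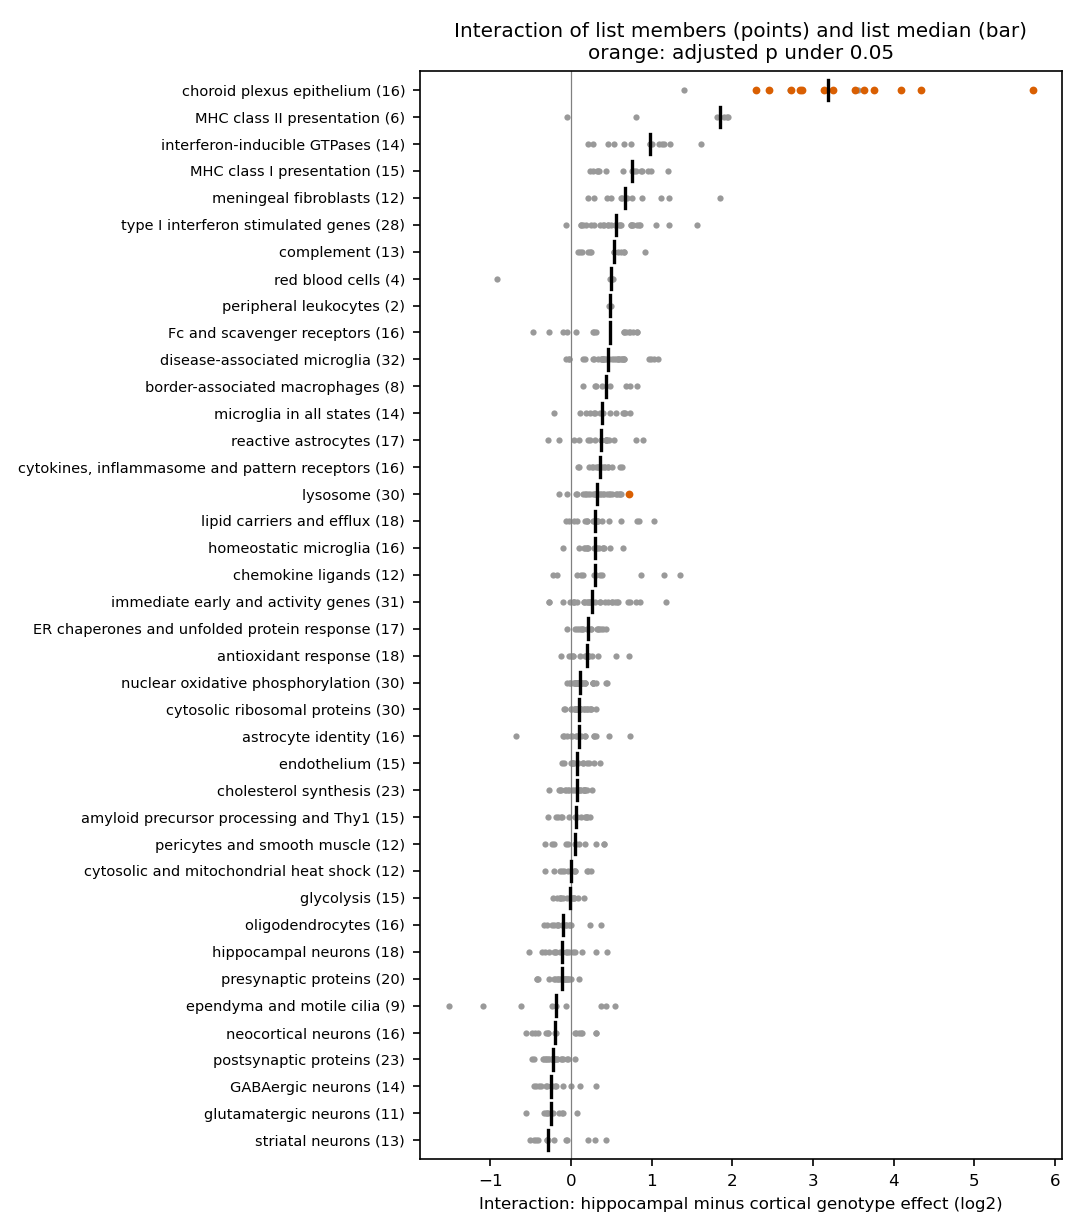
Interaction (x axis, log2) of each tested member (points) of 40 gene lists (rows, number of members in brackets) with the list median (bar); orange points had an adjusted p under 0.05. The choroid plexus list stands apart with a median of 3.19; immune lists have medians above 0 and neuronal and synaptic lists medians below 0.

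Astrocytes gave a case where the scale sets the direction. Gfap, the filament protein of reactive astrocytes, was at 30.1, 48.1 and 30.8 FPKM in wildtype cortex and 163.2, 116.2 and 137.4 in 5xFAD cortex, and at 115.1, 135.4 and 139.1 in wildtype hippocampus and 480.1, 404.1 and 353.6 in 5xFAD hippocampus. The wildtype hippocampus thus began near the level that cortex reached in 5xFAD. As a fold the rise was 1.94 in cortex and 1.66 in hippocampus on the log2 scale (interaction -0.28, SE 0.26, adjusted p = 0.86, limma). In FPKM the mean rose by 102.6 in cortex and 282.7 in hippocampus, a difference of 180.1 in the other direction. The 17 reactive astrocyte genes had a median interaction of 0.37, with 2 called higher in cortex (1.91% of all genes) and 8 in hippocampus (7.08%), and the 16 astrocyte identity genes 0.10, with the water channel Aqp4 at 0.47 (adjusted p = 0.39, limma).

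Immediate early genes, which neurons switch on within minutes of activity, had median effects below 0 in both tissues, and 27 of 31 had an interaction above 0 (52.3% over all genes). The median effect was -0.81 in cortex, with 15 called lower (0.232% of all genes), and -0.52 in hippocampus, with 11 called lower (1.01%) and 1 higher. None of the interactions was called, and the median was 0.26. Arc, a regulator of synaptic plasticity, was at 101.9, 76.1 and 64.2 FPKM in wildtype cortex and 9.65, 11.2 and 34.8 in 5xFAD cortex, and at 43.5, 61.5 and 51.5 in wildtype hippocampus and 15.9, 17.2 and 21.3 in 5xFAD hippocampus. Wildtype cortex began higher and both tissues ended near the same mean, 18.6 and 18.1 FPKM (interaction 0.81, SE 0.52, adjusted p = 0.82, limma).

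Egr1 and Egr2, transcription factors of the list, also began higher in wildtype cortex. Egr1 was at 167, 122.4 and 114.1 FPKM in wildtype cortex and 32.3, 41.9 and 68.1 in 5xFAD cortex, against 48.4, 69.0 and 43.7 and then 23.4, 21.95 and 31.7 in hippocampus (0.50, SE 0.36, adjusted p = 0.84, limma). Egr2 was at 4.96, 3.09 and 3.53 in wildtype cortex and 0.581, 1.56 and 0.780 in wildtype hippocampus (1.18, SE 0.39, adjusted p = 0.43, limma). In Nr4a3, a nuclear receptor, the wildtype order was the other way, with 4.51 to 6.74 in cortex and 12.2 to 15.8 in hippocampus, and its interaction was 0.71 (SE 0.24, adjusted p = 0.46, limma).

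None of the interactions below 0 was called. Cldn22, a claudin, had the smallest p among them: 0, 0 and 0.0277 FPKM in wildtype cortex, 0.261, 0.256 and 0.205 in 5xFAD cortex, 1.27, 1.65 and 1.66 in wildtype hippocampus and 1.02, 1.34 and 1.23 in 5xFAD hippocampus (-0.79, SE 0.17, adjusted p = 0.101, limma). It was called with a pseudocount of 0.1, with quantile normalization, without the intensity trend and with array weights. The potassium channel Kcnh3 was at 26.6 to 27.9 FPKM in wildtype and 28.5 to 29.1 in 5xFAD cortex, and at 14.9, 16.9 and 18.1 in wildtype and 13.1, 10.8 and 12.5 in 5xFAD hippocampus (-0.52, SE 0.12, adjusted p = 0.16, limma). Its cortical levels were nearly level while the hippocampal ones fell by 0.44 on the log2 scale (adjusted p = 0.0063, limma).

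Tyro3, a receptor of the phagocytic TAM family that neurons express, lay at 42.2 to 50.3 FPKM in both cortical groups, and at 22.9 to 24.3 in wildtype and 15.9 to 18.7 in 5xFAD hippocampus (-0.47, SE 0.12, adjusted p = 0.19, limma). Dact2, a Wnt pathway regulator, was at 18.2 to 19.3 FPKM in wildtype and 23.6 to 25.6 in 5xFAD cortex, without overlap, and at 8.77 to 12.5 and 8.61 to 9.46 in hippocampus (-0.64, SE 0.15, adjusted p = 0.16, limma). Psrc1, a spindle protein, had -0.87 (SE 0.21, adjusted p = 0.19, limma).

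Neuronal lists had medians just below 0. Only 1 of 11 glutamatergic neuron genes, 2 of 14 GABAergic neuron genes, 2 of 20 presynaptic and 1 of 23 postsynaptic genes had an interaction above 0, against 52.3% of all genes, with medians of -0.25, -0.24, -0.12 and -0.23. Between 0 and 2 members of each had an unadjusted p under 0.05 (2.03% over all genes, negative direction). Camk2a, the kinase of excitatory synapses, was at 522.3 to 553.5 FPKM in wildtype and 564.8 to 603.3 in 5xFAD cortex, and at 626.7 to 729.6 and 539.5 to 653.7 in hippocampus (-0.34, SE 0.14, adjusted p = 0.62, limma). Grin1, the shared subunit of NMDA receptors, had -0.29 (adjusted p = 0.59, limma). The 16 oligodendrocyte genes had a median of -0.10 with 3 above 0, and the 18 hippocampal neuron markers -0.11 with 5 above 0. FPKM is a share of the library, and the part of the large choroid plexus transcripts in these small shifts was not tested. Centring each library on its median left 37 interactions called, all among the 42 and all in the same direction. None of these was in a neuronal or synaptic list, so that count does not bear on the medians of those lists.

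For some genes the data bound the difference between tissues. The genotype was called in both tissues in the same direction for 257 genes (1.92%), 244 higher (1.82%) and 13 lower, and in opposite directions for 0. The 244 had median effects of 0.90 in cortex and 1.27 in hippocampus; 219 had an interaction above 0 (52.3% over all genes) and 83 an unadjusted p under 0.05 in that direction (5.09% over all genes), with 0 in the other. Ctsc and Slc37a2 were the 2 among them with a called interaction (0.0149% of all genes). For 39 of the 257 genes the 95% interval of the interaction lay within 0.5 of 0 on the log2 scale. These 39 were 0.291% of all genes tested, and the median half-width over all genes was 0.38. Fdps, an enzyme of cholesterol synthesis, rose by 0.52 and 0.48 (interaction -0.04, interval 0.34 to either side).

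The neuropeptide precursor Vgf fell by 0.69 in cortex and by 0.77 in hippocampus on the log2 scale (interaction -0.08, interval 0.31 to either side). It was at 70.4, 58.7 and 54.6 FPKM in wildtype cortex and 34.3, 40.0 and 38.2 in 5xFAD cortex, and at 48.5, 47.4 and 48.6 in wildtype hippocampus and 27.8, 25.4 and 31.2 in 5xFAD hippocampus. The groups were separate in both tissues. The cochaperone gene Dnajb5 fell by 0.57 and by 0.47 (interaction 0.10, interval 0.33 to either side). Igfbp5, a binding protein of insulin-like growth factors, had effects of 0.53 in cortex (adjusted p = 0.043; blocking on replicate number gave 0.062, limma) and 0.50 in hippocampus (interaction -0.04, interval 0.37 to either side).

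Lists of general cell function had small medians, in part with most members on 1 side of 0. Median interactions were 0.10 for 30 cytosolic ribosomal proteins, 0.11 for 30 nuclear oxidative phosphorylation genes, -0.02 for 15 glycolysis genes, 0.00 for 12 heat shock genes and 0.07 for 23 cholesterol synthesis genes, with none called. Above 0 were 26 of 30 ribosomal and 27 of 30 oxidative phosphorylation genes, against 52.3% of all genes. Endothelial (0.08) and pericyte and smooth muscle genes (0.05) were similar, and 15 genes of amyloid precursor processing had 0.07. Lists between these and the immune genes were the lipid carriers (0.30), the antioxidant response (0.19) and the unfolded protein response (0.20, with 16 of 17 above 0).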

How the data were processed

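Transcripts were measured by bulk RNA-seq of total RNA. The deposited table holds FPKM made by the authors, with fastp, HISAT2, HTSeq and GRCm39 named per the submitters' processing notes; the annotation, gene lengths and strand use: not given in the sources used here. FPKM values were whole multiples of 1 read for 100% of genes (relative tolerance 1e-06), which gave the depths. In the 12 PBS libraries 1 read was worth 0.00855 to 0.0101 FPKM at the median gene length. Genes well below 0.5 FPKM thus carry counting error. All sample columns matched a label. Log2(FPKM + 0.5) of the 12 PBS libraries was fitted in limma 3.58.1 (R 4.3.3) with 1 mean per group, eBayes and an intensity trend. Genotype effects and interaction come from that fit. It was also run on simulated data with independent normal noise in each gene. Genes that vary together, such as the choroid plexus markers, were not simulated, so that run does not bear on them. Values on the log2(FPKM + 0.5) scale understate changes of low genes.

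The contrast, the 40 gene lists and the rules for named genes were chosen with earlier results of these data known. Named genes were the largest called interactions, the called members or the 2 most abundant members of each list, a fixed set (Thy1, App, Cd36, Cst7, Trem2, Gfap, Cd74, Ttr, Arc), and genes called in both tissues with a bounded interaction. Other genes, such as the list members with the smallest p (Lamp2, Bst2, Siglech, Egr2, Nr4a3, Grin1, Aqp4, H2-Ab1, H2-Eb1), H2-T23 and the 3 uncalled choroid plexus markers, were chosen after their values were seen. A few genes selected by these rules are not reported here. In cortex, deviations of same-numbered wildtype and 5xFAD libraries from their group means had correlations of 0.205, 0.494 and 0.160. Wildtype replicate 3 was closest to 5xFAD replicate 1, so the numbers did not pair all libraries. These correlations come from the values and not from the labels. In other pairs of groups some were below 0, such as -0.279 for wildtype replicate 3 across the tissues. Alternatives changed the pseudocount, filter, normalization, libraries, model and covariates.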

Additional observations from a re-analysis of the deposited data

Results flagged for a closer look

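The genotype effect differed between the tissues, by the interaction test, for 42 genes, each larger in hippocampus. On the log2 scale the differences were 5.72 for Ttr, 4.33 for Kcne2, 4.08 for Clic6, 3.96 for Prr32, 3.75 for Kcnj13, 3.70 for Steap1, 3.69 for Defb11, 3.63 for Folr1, 3.59 for Wfdc2 and 3.52 for F5. Next came Slc4a5 at 3.24, Enpp2 at 3.22, Cldn2 at 3.13, Krt18 at 2.91, Sostdc1 at 2.86, Kl at 2.84, Tmem72 at 2.73, Sulf1 at 2.65, Otx2 at 2.45, Col8a1 at 2.44, Ace at 2.42, Prlr at 2.29, Wdr86 at 2.23, Slc16a8 at 2.18, Slc24a5 at 2.08, Col9a3 at 2.02 and Epn3 at 2.01. Below 2 were Slc2a12 (1.99), Trpv4 (1.92), Abca4 (1.89), Baiap2l1 (1.83), Ins2 (1.73), Crhr2 (1.58), Car12 (1.54), Pon3 (1.41), Ooep (1.36), Fam81b (1.32), Steap2 (1.29), Htr2c (1.23), Slc37a2 (1.03), Sntb1 (0.997) and Ctsc (0.72).

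In the vesicle-treated libraries, which no test used, the summed choroid plexus markers exceeded every wildtype PBS library of the same tissue in cortex replicates 1 (18.06 FPKM, against at most 15.4) and 3 (886.7), and in hippocampus replicates 1 (5810), 2 (2316) and 3 (196.4, against at most 184.3).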

How the results depend on the processing

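With 3 libraries per group the median 95% half-width was 0.38 on the log2 scale, without adjustment for the number of genes. A call mostly needed a larger difference than that. The smallest called was 0.72, for Ctsc. Lamp2 at 0.56 (adjusted p = 0.057, limma) and B2m at 0.78 (adjusted p = 0.11, limma) were not called. Against 42 called interactions (42 larger, 0 smaller in hippocampus), the numbers larger and smaller were 34 and 1 with a pseudocount of 0.1, 26 and 1 (27 in all) without a filter, 26 and 0 at 2 FPKM, 33 and 1 after quantile normalization, 43 and 1 without the intensity trend, 172 and 25 (197 in all) with array weights, whose estimation did not converge and gave wildtype hippocampus replicate 2 a weight of 34.7, 2 and 0 with voom, and 0 and 0 with all 18 libraries. The cause of these shifts was not tested. Leaving out 1 library gave 13 to 59 calls in all, 13 to 58 larger and 0 to 1 smaller; the fits with the fewest left out 5xFAD cortex replicate 3 and wildtype hippocampus replicate 2, at 13 each. In those fits no called gene changed sign. Genotype calls were 483 in cortex and 3276 in hippocampus with array weights, and 168 to 294 and 760 to 1082 when 1 library was left out; in cortex 168 without wildtype cortex replicate 1, 187 without 5xFAD cortex replicate 2 and 190 without replicate 3.

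With the choroid plexus mean as a covariate, which follows genotype in hippocampus and is built from 13 of the 42 called genes, 0 interactions and 20 hippocampal genotype effects were called. The interaction then turned negative for Sostdc1 (-1.08), Krt18 (-0.91), Wdr86 (-0.65), Folr1 (-0.48), Cldn2 (-0.46), Otx2 (-0.42), Defb11 (-0.39), Col9a3 (-0.36), Trpv4 (-0.36), Slc16a8 (-0.32), Wfdc2 (-0.30), Ace (-0.28), Slc2a12 (-0.20), Slc24a5 (-0.13), Steap2 (-0.11) and Baiap2l1 (-0.078), none passing. The replicate number as a block gave 55 larger interactions, 40 of the 42 among them, and 287 genotype calls in cortex; Ctsc (adjusted p = 0.067, limma) and Sntb1 (0.067) no longer passed. With a block for genotype and number together 41 were called, 31 of the 42 among them. Across the 2 tissues the same numbers did not pair all libraries either. Correlations were 0.312, 0.171 and -0.279 in wildtype and 0.387, 0.505 and 0.00725 in 5xFAD.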
